A study of Mus musculus with 2 samples.

Results

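The immunity-related GTPases (IRG proteins) of the mouse were examined in macrophages grown from bone marrow. Of 55536 genes in the deposited gene tables, 7 were chosen by symbol: Irgm1, Irgm2 and Igtp as the regulatory members, and Iigp1, Tgtp1, Tgtp2 and Ifi47 as the effector members. All 7 were found and all 7 passed the count minimum used below. The study holds 2 polyA-selected RNA libraries of primary C57BL/6J bone marrow-derived macrophages, each from 1 µg of RNA, taken after 30 min with a ligand at 100 ng/ml. The labels do not settle the ligand: a description gives lipid A, other fields lipoprotein A. The labels number the libraries as biological replicates 1 and 2, with separate biosamples under the same donor record, and give neither age nor sex. No untreated library was analysed here, so the values below are levels after the treatment and describe no response to it.

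IRG proteins are large GTPases that interferons induce in mouse cells. The effector members coat and break the vacuole in which intracellular pathogens such as Toxoplasma gondii or Chlamydia live. The regulatory members sit on the cell's own membranes and hold the effectors there in an inactive state. Guanylate-binding proteins and the autophagy conjugation machinery act with them at the vacuole. Interferon-γ acts on genes through a short palindrome called GAS, and type I interferon through the interferon-stimulated response element (ISRE).

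The classes differ at the P-loop, the stretch that binds the phosphates of GTP: regulatory members carry methionine where effector members carry lysine. The codons for this stretch are shown because they define the classes on the coding sequence, independently of expression. Each run covers 8 codons (24 bases) of the transcript that took most of the gene's level, read from the GENCODE M21 transcripts, with the methionine or lysine codon in capitals.
Irgm1, Irgm2 and Igtp: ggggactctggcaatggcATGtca
Tgtp1 and Tgtp2: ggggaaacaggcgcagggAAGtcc
Ifi47: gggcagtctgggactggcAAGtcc
The 3 regulatory genes had the same 24 bases, and so did Tgtp1 and Tgtp2. On mm10 these codons lie on chromosome 11. They are in exon 2 of 2 of Irgm1-202 (48866761 to 48866784, minus strand) and exon 2 of 2 of Irgm2-202 (58219695 to 58219718, plus strand). In Igtp-201 they lie in exon 3 of 3 (58206275 to 58206298, plus strand). In Tgtp1-201 and Tgtp2-201 they lie in exon 2 of 2 on the minus strand (48987667 to 48987690 and 49059534 to 49059557), and in Ifi47-201 in exon 2 of 2 on the plus strand (49095648 to 49095671). The capital codon is number 73 of 393 in Irgm1-202, 77 of 395 in Irgm2-202, 97 of 423 in Igtp-201, 69 of 415 in both Tgtp transcripts and 87 of 420 in Ifi47-201. Iigp1 also had a lysine codon, AAG, at this place. Over the whole coding sequence, P-loop included, the classes were further apart than members within a class. Translated coding sequences shared 45.3% to 49.2% of residues among the regulatory members and 37.9% to 42.7% among the effector members, leaving aside the Tgtp pair, against 25.4% to 30.7% between the classes.

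The promoters were read from RefSeq sequence (GRCm38.p6, 250 bases before to 50 bases after the start site), and 6 of the 7 members had an entry; Iigp1 did not. The ISRE was searched as GAAA, any 2 bases and GAAA, and the GAS as TTCNNNGAA, both on either strand. An ISRE match was present in 5 of 6 promoters and a GAS match in 4 of 6. Over all 32851 promoters of the table, 3.44% held the ISRE and 8.30% the GAS. The 60-base windows around these matches are shown because 4 of them hold both motifs in the same arrangement. They run 5′ to 3′ on the gene's strand, with GAS and ISRE matches in capitals.
Irgm1 (chr11:48871423-48871482, minus strand): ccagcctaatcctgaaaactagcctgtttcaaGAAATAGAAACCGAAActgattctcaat
Irgm2 (chr11:58214878-58214937, plus strand): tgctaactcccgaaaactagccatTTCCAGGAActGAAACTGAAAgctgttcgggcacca
Igtp (chr11:58199487-58199546, plus strand): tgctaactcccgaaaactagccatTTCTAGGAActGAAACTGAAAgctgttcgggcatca
Tgtp1 (chr11:48992299-48992358, minus strand): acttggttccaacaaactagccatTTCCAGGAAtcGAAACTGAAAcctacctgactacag
Tgtp2 (chr11:49064258-49064317, minus strand): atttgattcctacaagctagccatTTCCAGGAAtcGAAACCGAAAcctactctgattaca
In Irgm2, Igtp, Tgtp1 and Tgtp2 the GAS came first and 2 bases separated it from the ISRE. Among 6 other IRG genes with an entry, 3 held the ISRE and 2 the GAS, and Gm12185 had the same order and spacing. The windows of Irgm2 and Igtp differed at 2 of 60 positions and those of Tgtp1 and Tgtp2 at 14, against 20 to 23 between the pairs. Irgm1 held 2 overlapping ISRE matches and no GAS. The annotation places the Igtp window in no gene and the Irgm2 window in an intron of Irgm2-201, which starts further upstream. The Irgm1 window lies in an exon of Irgm1-203, a minor noncoding transcript, upstream of the leading one. The Tgtp1 and Tgtp2 windows lie in introns of Olfr56 on the opposite strand. That of Tgtp1 also lies in an intron of a Tgtp1 transcript that starts further upstream. Ifi47 had neither motif in its entry, but its leading transcript Ifi47-201 starts 10452 bases downstream of that start site, so its own upstream sequence was not searched. A match describes letters only and shows no binding.

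**Figure D1:**
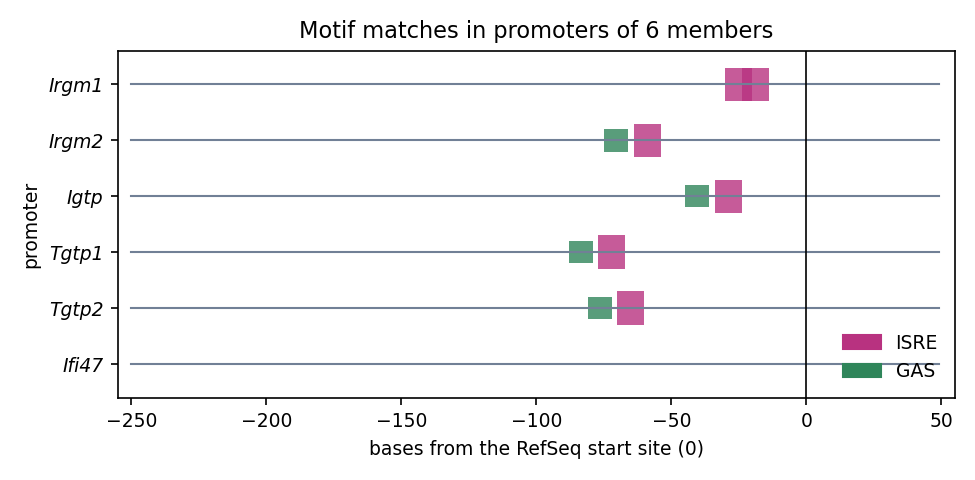
Positions of ISRE and GAS matches in the RefSeq promoters of 6 members, in bases from the start site, which is base 0 (250 bases before to 50 after). In 4 promoters a GAS stands 2 bases before an ISRE, Irgm1 has 2 overlapping ISRE matches, and Ifi47 has no match in the window of its upstream start site.

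The 3 regulatory members were all well expressed. Levels are given in TPM, an abundance scaled by transcript length and by the library total, so that genes can be compared with each other. A gene was counted as detected if it reached 1 TPM in each library; the 10658 detected genes had a median level of 15.3 TPM in replicate 1 and 17.1 TPM in replicate 2. In bulk RNA, fewer cells that express a gene and less RNA per cell cannot be told apart.

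Irgm1 (ENSMUSG00000046879.7, chromosome 11, 48861968 to 48871683), the regulator found on the Golgi, lysosomes and mitochondria, was at 125 TPM in replicate 1 and 225 TPM in replicate 2 (175 ± 70.9, SD, n = 2). Of the detected genes, 91.3% and 94.5% were below it. It was the highest member in both libraries, on 5803 and 14648 counts. Irgm2 (ENSMUSG00000069874.7, chromosome 11, 58199618 to 58222782) was at 34.2 and 58.8 TPM (46.5 ± 17.4), on 2737 and 6640 counts. Igtp (ENSMUSG00000078853.8, chromosome 11, 58199556 to 58207591), which encodes Irgm3 of the endoplasmic reticulum and lipid droplets, was at 31.9 and 54.7 TPM (43.3 ± 16.2), on 1386 and 3316 counts. Irgm2 and Igtp thus stood close together, at a ratio of 1.07 in replicate 1 and 1.08 in replicate 2, and both were lower than Irgm1 in each library.

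The 4 effector members spanned a wider range of levels. Ifi47 (ENSMUSG00000078920.3, chromosome 11, 49076587 to 49096974), which encodes Irgd, was at 49.1 and 112 TPM (80.7 ± 44.7), on 1762 and 5564 counts. Tgtp2 (ENSMUSG00000078921.3, chromosome 11, 49057194 to 49064206), one of the genes for Irgb6, was at 26.8 and 78.7 TPM (52.7 ± 36.7), on 1161 and 5353 counts. Both were higher in replicate 2. Iigp1 (ENSMUSG00000054072.12, chromosome 18, 60376027 to 60392634), which encodes Irga6, an effector that loads onto the Toxoplasma vacuole, was at 6.34 and 23.4 TPM (14.9 ± 12.1), on 425 and 2192 counts. It is the only member outside chromosome 11. Of the detected genes 26.6% were below it in replicate 1 and 58.7% in replicate 2. Tgtp1 (ENSMUSG00000078922.9, chromosome 11, 48985327 to 48994172), the other Irgb6 gene, was the lowest member, at 0.76 and 2.09 TPM (1.43 ± 0.94), on 48.9 and 188 estimated counts. It was below 1 TPM in replicate 1.

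By mean TPM the members ranked Irgm1, Ifi47, Tgtp2, Irgm2, Igtp, Iigp1 and Tgtp1. Neighbours whose 2 values did not overlap were Irgm1 and Ifi47 (2.55-fold apart in replicate 1 and 2.01-fold in replicate 2), Igtp and Iigp1 (5.02 and 2.33), and Iigp1 and Tgtp1 (8.34 and 11.2). The ranges of Ifi47 and Tgtp2, of Tgtp2 and Irgm2, and of Irgm2 and Igtp overlapped. Within each library Ifi47 was still above Tgtp2 (1.83-fold and 1.43-fold), and Irgm2 slightly above Igtp (1.07 and 1.08). The place of Tgtp2 changed with the library: it was at 0.783 times Irgm2 in replicate 1 and at 1.34 times in replicate 2. It also rests on a short noncoding transcript with few counts, since the coding Tgtp2-201 alone was at 17.8 and 59.0 TPM. The median regulatory member was at 34.2 and 58.8 TPM, and the median effector member at 16.6 and 51.1 TPM. On the log2 scale the effector median was at -1.05 relative to the regulatory median in replicate 1 and at -0.20 in replicate 2 (mean -0.63 ± 0.60, SD, n = 2). That mean is about as large as the SD, and it turned to 0.072 when Tgtp1 and Tgtp2, which share most of their sequence, were summed to 1 gene. Tgtp1 added only 0.76 and 2.09 TPM to the sum. The turn came from the median, which lay between Iigp1 and Tgtp2 before and on the pair (27.5 and 80.8 TPM) after. That sum still holds the short noncoding Tgtp2-202, at 8.95 and 19.7 TPM. No order of the classes therefore holds beyond the spread.

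**Figure D2:**
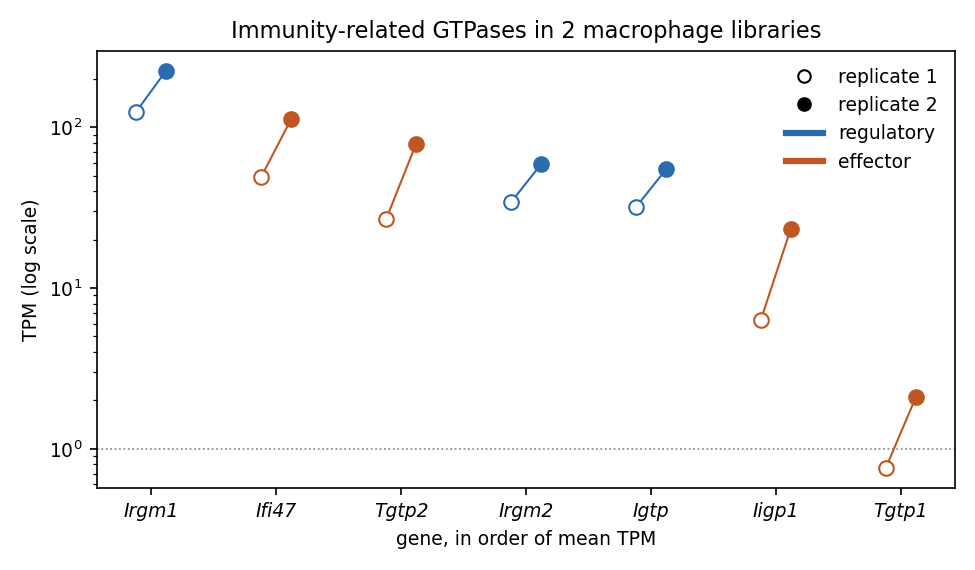
Level of each member in TPM (log axis) in replicate 1 (open points) and replicate 2 (filled points), joined by a line, in order of mean TPM, with regulatory members in blue and effector members in orange; the dotted line marks 1 TPM. Every member is higher in replicate 2, and the lines of the effector members are steeper.

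The libraries held 37784941 and 51904470 counts, and they differed in other ways that run with replicate number. A ribosomal RNA gene took 10.9% of counts in replicate 1 and 5.05% in replicate 2. All 7 macrophage markers were above 1 TPM in both libraries, with 2 higher and 5 lower in replicate 2. These calls are from the test described below, by which 31.8% of all genes tested were higher and 31.4% lower. Neutrophil markers summed to 311 and 55.4 TPM, with 5 of 5 tested lower in replicate 2. Most of that sum was S100a8 (124 and 18.1 TPM) and S100a9 (183 and 37.1 TPM). Mpo had 46 and 3 counts, Elane 20 and 1, Camp 23 and 2, Retnlg 3 and 0, and Ly6g 1 and 0. Proliferation markers summed to 485 and 292 TPM, with 5 of 5 lower. T and NK cell markers, of cells that make interferon-γ, summed to 0.69 and 0.02 TPM, with Ncr1 and Gzma at 0 in both. Dendritic cell markers summed to 3.48 and 1.75 TPM, with 4 of 4 tested lower in replicate 2. Cd79b, the B cell marker with enough counts to test, was at 3.88 and 1.43 TPM and lower in replicate 2 (ratio 0.368). Stromal markers summed to 0.95 TPM in each library. The part of these differences in the ratios given next was not tested.

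All 7 members were higher in replicate 2 than in replicate 1. Ratios are of counts scaled by TMM, a factor that sets the typical gene to no change, and each is given with its 95% counting interval. The test was an exact two-sided binomial test per gene with Benjamini-Hochberg adjustment over 12955 genes. It compares the 2 libraries, not conditions, and its intervals cover counting error only. By this test 7 of 7 members were higher in replicate 2 and none lower. The background is high, since 31.8% of all genes tested were higher in replicate 2 at an adjusted p under 0.05. In a second deposited quantification of the same reads 7 of 7 members were also higher, against 29.0% of all genes tested there. In the gene table, of all genes called in either direction 50.3% were higher, or 68.6% when libraries were scaled by total counts.

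Among the regulatory members the ratios were close to each other. The ratio was 1.68 (1.63 to 1.73) for Irgm1, 1.61 (1.54 to 1.69) for Irgm2 and 1.59 (1.49 to 1.70) for Igtp. Their intervals overlapped, and differences among the 3 were not tested.

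The effector members had ratios above all of these. Iigp1 had the highest, 3.43 (3.09 to 3.81), and Tgtp2 followed at 3.07 (2.88 to 3.27). Tgtp1 was at 2.55 (1.85 to 3.57), with an adjusted p of 1.52e-09 in the exact binomial test, the largest of the family. Ifi47 was lowest of the class at 2.10 (1.99 to 2.22). In the gene table no interval of an effector member overlapped one of a regulatory member. In the second quantification the interval of Tgtp1 (1.58 to 2.83) overlapped that of Irgm1, which reached 1.59. A ratio over 2-fold was found for 4 of 7 members, all of them effectors, against 6.89% of all genes tested. In the second quantification Ifi47 was at 1.93 (1.83 to 2.03), which left 3 of 7 over 2-fold, against 11.7% of all genes tested there. The median log2 ratio was 0.69 for regulatory members, 1.48 for effector members and 0.00 over all genes tested. On unscaled TPM these medians were 0.78, 1.51 and 0.11.

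**Figure D3:**
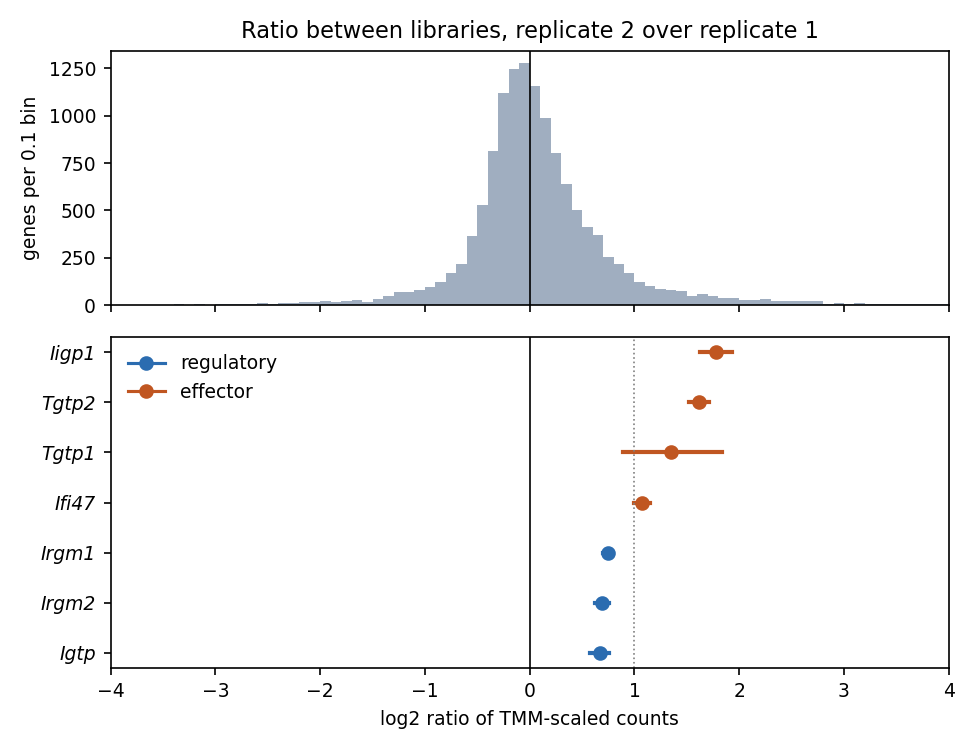
Upper panel, number of genes per 0.1 of the log2 ratio of TMM-scaled counts, replicate 2 over replicate 1, for the 12955 genes tested (the few beyond 4 on either side are not drawn). Lower panel, the same ratio for each member with its 95% counting interval, regulatory in blue and effector in orange, and a dotted line at 2-fold. The 4 effector members lie between 2.10-fold and 3.43-fold and the 3 regulatory members between 1.59-fold and 1.68-fold.

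The make-up of the family differed between the libraries in a way that no library scaling can change, because it is a share within the family. The 7 genes held 13323 counts in replicate 1 and 37901 in replicate 2, which is 0.0353% and 0.0730% of all counts. Effector members took 25.5% of the family's counts in replicate 1 (24.8% to 26.2%, exact Clopper-Pearson interval) and 35.1% in replicate 2 (34.6% to 35.6%). The second quantification gave 26.3% and 35.7%. Tgtp2 went from 8.71% to 14.1% and Iigp1 from 3.19% to 5.78%. The share of Ifi47 was 13.2% and 14.7%. Irgm1 took 43.6% and 38.6%, Irgm2 20.5% and 17.5%, and Igtp 10.4% and 8.75%. Every regulatory member thus held a smaller share of the family in replicate 2. On TPM, effector members made up 30.2% and 39.0% of the family's summed level of 274 and 555 TPM.

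**Figure D4:**
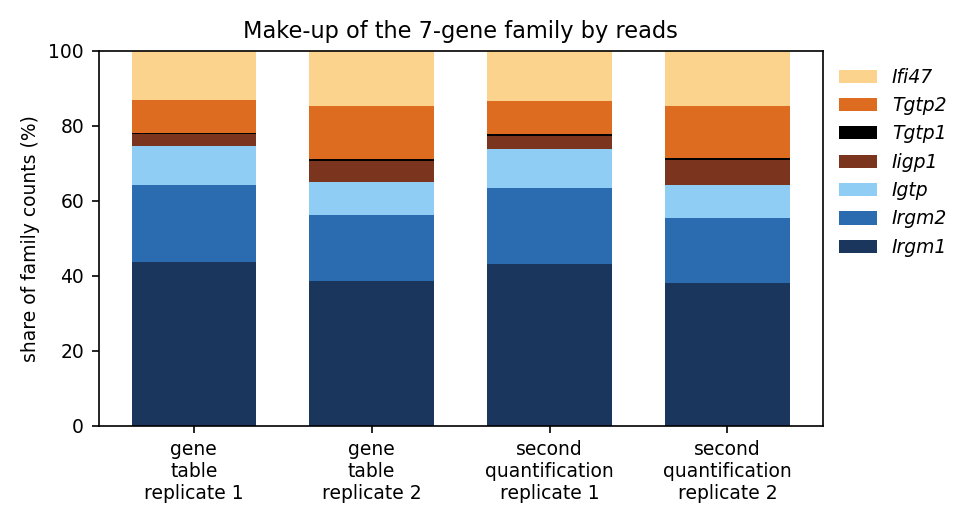
Share of the family's counts (%) taken by each member in each library, in the gene table and in the second quantification; blue shades are regulatory and warm shades effector members. The effector part is 25.5% in replicate 1 and 35.1% in replicate 2 of the gene table, and 26.3% and 35.7% in the second quantification.

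Tgtp1 and Tgtp2 are near-identical copies, and their separate values are uncertain. Their coding sequences of 415 codons differ at 4 bases and at 0 residues. Of 2774 overlapping 50-base stretches in Tgtp1-201, 91.4% also occur in a transcript of another gene, nearly all in Tgtp2. For Tgtp2-201 the share was 90.6% of 2761. The posterior SD of the count that the gene table gives was 6.52 counts for Tgtp1 in replicate 1, on 48.9 counts, and 11.8 in replicate 2, on 188. Tgtp1 took 4.04% and 3.40% of the pair's counts in the gene table, and 4.85% and 3.76% in the second quantification. Summed, the pair was at 27.5 and 80.8 TPM, on 1210 and 5541 counts, a ratio of 3.05 (2.86 to 3.24). The summed counts do not depend on how reads are split between the 2 genes. The summed TPM still rests in part on the short Tgtp2-202, at 8.95 and 19.7 TPM. Since Tgtp2 holds nearly all of the summed counts, the ratio of the sum had to lie close to that of Tgtp2.

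The other members shared far less sequence. Such stretches made up 0.885% of the leading transcript of Irgm1, 3.47% of that of Iigp1 (shared with Gm4951), 3.60% of that of Ifi47, 6.86% of that of Irgm2 and 12.3% of that of Igtp. Irgm2 and Igtp share theirs mostly with each other, and their loci overlap on the same strand, since Irgm2-201 begins beside the start of Igtp. Tgtp1 overlaps Gm12185 on the same strand, at 0.30 and 1.72 TPM. Olfr56, an olfactory receptor gene annotated across Tgtp1, Tgtp2 and Ifi47, was at 0.54 and 1.75 TPM. It lies on the strand of Ifi47 and opposite the Tgtp genes.

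One transcript led each gene in both libraries of the gene table. Irgm1-202 took 80.0% and 78.5% of Irgm1, with Irgm1-201 at 19.9% and 21.4%; the latter starts 46 bases further downstream and its longer reading frame has 409 codons. Irgm2-202 took 73.5% and 72.5% of Irgm2, and Irgm2-203 took 9.66% and 14.5%. Igtp-201 took 92.8% and 89.3% of Igtp. These leading regulatory transcripts all code for the methionine P-loop.

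Among the effectors, Ifi47-201 took 85.7% and 93.6% of Ifi47. Iigp1-202 took 85.9% of Iigp1 in replicate 1 and 74.0% in replicate 2, while Iigp1-201 was at 13.6% and 22.7%. Both Iigp1 transcripts hold a reading frame of 413 codons. The second quantification also put Iigp1-202 lower in replicate 2, at 81.6% and 64.7%, and Iigp1-201 at 15.9% and 30.8%. Tgtp2-201 took 66.6% and 75.0% of Tgtp2. The rest, 33.4% and 25.0%, went to Tgtp2-202, a 370-base noncoding transcript, on 27.2 and 74.0 counts. Its share rests on an effective length of 122 and 106 bases, so few reads weigh heavily on the TPM scale. For Tgtp1 the gene table gave all to Tgtp1-201, whereas the second quantification gave 65.2% and 25.1% to the 373-base Tgtp1-202 on 6.61 and 4.51 counts. The TPM of Tgtp1 in that quantification was 1.94 and 2.61, and most of the first value rests on those 6.61 counts.

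Other genes of the IRG family were also mostly higher in replicate 2. Of 10 listed, 8 passed the count minimum, 8 of 8 were higher and 4 by over 2-fold, with a median log2 ratio of 1.02. Over all genes tested, 31.8% were higher and 6.89% by over 2-fold. Gm5431 was highest, at 60.1 and 75.6 TPM with a ratio of 1.18. 9930111J21Rik2 was at 27.6 and 56.6 TPM (ratio 2.12) and 9930111J21Rik1 at 12.5 and 24.8 TPM (1.93). Gm12250, annotated as a processed pseudogene, was at 25.9 and 47.4 TPM (1.69). The highest ratios were those of F830016B08Rik (3.06) and Gm4951 (2.28). Gm5431 and Irgq (1.17) had ratios below that of Igtp (1.59), the lowest regulatory member. The ratio of Gm12250 was close to that of Irgm1 (1.68). All 10 listed genes had the lysine P-loop in a transcript, as given below. A ratio above those of the regulatory members was therefore not common to all genes with that form. Irgc1 had 0 counts in replicate 1 and 1 in replicate 2.

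All 11 guanylate-binding protein genes, whose products act with IRG effectors at the vacuole, were higher in replicate 2 by over 2-fold. The share over all genes tested was 6.89%. The list's median log2 ratio was 1.93. Gbp2 was at 37.8 and 135 TPM (ratio 3.32), Gbp5 at 10.9 and 50.5 TPM (4.47), Gbp3 at 12.9 and 49.5 TPM (3.49) and Gbp9 at 13.8 and 31.0 TPM (2.14). The highest ratios were at low counts, in Gbp11 with 2.03 and 33.1 counts and Gbp2b with 2 and 20 counts. The list's summed level was 101 and 353 TPM.

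Interferon receptors and signalling genes did not move as one. Of 14 tested, 8 were higher in replicate 2, 1 of them by over 2-fold, and 4 were lower, with a median log2 ratio of 0.21. Over all genes tested, 31.8% were higher, 6.89% by over 2-fold, and 31.4% were lower. Irf1, a transcription factor of the interferon response, was the gene over 2-fold, at 150 and 464 TPM (ratio 2.84). Socs1, a feedback inhibitor, had 20 and 54 counts (1.80). Irf8 was at 178 and 166 TPM (0.872), and Ifnar2, a type I interferon receptor chain, at 171 and 144 TPM (0.812). Among 6 interferon ligand genes, Ifnb1 alone had enough counts to test, with 1 count in replicate 1 and 59 in replicate 2 (ratio 39.2, 6.77 to 1576). Ifng had 0 and 1 counts, and Ifna4, Ifnl2 and Ifnl3 had 0 in both.

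Autophagy conjugation and vacuole ubiquitin genes were expressed at similar summed levels in both libraries, 2287 and 2261 TPM. Of 15 tested, 2 were higher in replicate 2, 7 were lower, none by over 2-fold, and the median log2 ratio was -0.03. The shares over all genes tested were 31.8% higher and 31.4% lower. Gabarap was at 1054 and 968 TPM (ratio 0.829), Sqstm1, an autophagy receptor, at 608 and 695 TPM (1.01), Gabarapl1 at 196 and 174 TPM (0.860) and Map1lc3b at 105 and 116 TPM (1.01). The highest ratios were those of Trim21 (1.57) and Rabgap1l (1.21).

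**Figure D5:**
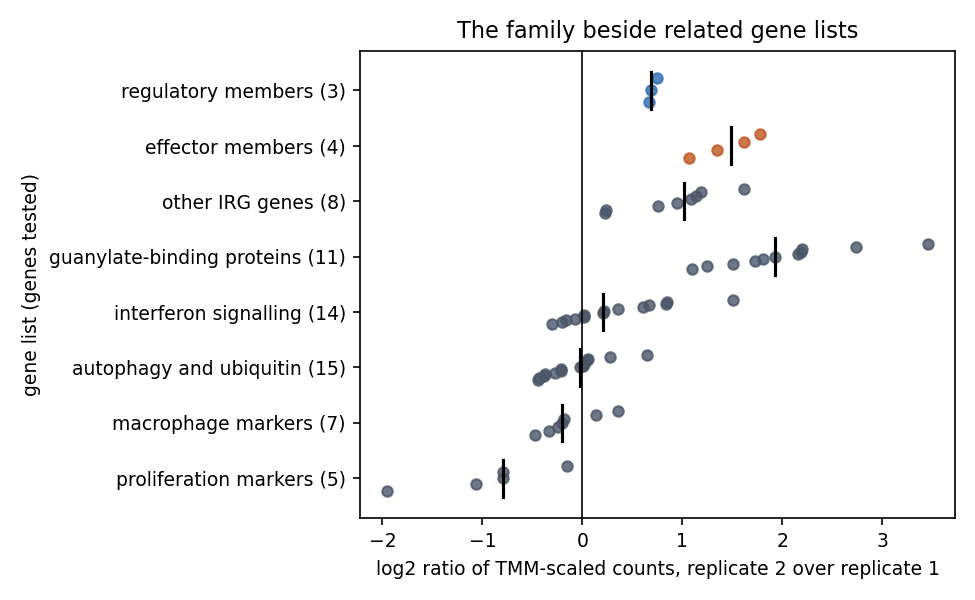
Log2 ratio of TMM-scaled counts, replicate 2 over replicate 1, for the tested genes of each list (points, with the number tested in brackets) and the list's median (vertical bar). Effector IRG members have a median of 1.48 and guanylate-binding proteins 1.93, against 0.69 for regulatory members and -0.03 for autophagy genes. The other IRG genes have a median of 1.02, and their points reach below those of the regulatory members.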

How the data were processed

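PolyA-selected RNA of 2 libraries from 1 treatment group was analysed from the deposited gene and transcript tables (mm10 and GENCODE M21, per the file headers and labels). No source used here names the tools the authors ran; the tables have the column layouts of RSEM and, for the second transcript quantification, kallisto. The deposited expected counts are estimates that need not be whole and were rounded for tests. TPM values were used as deposited, and so were transcript shares in percent, the posterior SD and the TPM bounds.

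Genes with a summed count of 20 or more (12955) were tested between libraries with an exact two-sided binomial test against TMM-scaled library sizes (edgeR 4.0.16), with Benjamini-Hochberg adjustment and a threshold of 0.05. The test was checked on simulated data that held counting error only. That check therefore covers neither other spread between libraries nor errors in assigning reads. With 2 libraries of 1 group the test measures counting error only, and the spread between libraries may be technical. Counting intervals are at 95%. The P-loop and residue identity came from the coding sequences of GENCODE transcripts and not from a protein table as planned. Of each list, the 4 genes of highest mean TPM, those at 0 counts and the 2 of highest ratio are named, except a gene that is not reported here; transcripts are named at 20% or more of a gene in either table. Promoter windows and marker lists were described without tests. Alternatives were total-count and DESeq2 1.42.0 scaling, other filters, the second quantification, posterior-mean TPM, TPM rescaled to protein-coding genes, a pseudocount of 1, summing Tgtp1 and Tgtp2, and leaving out each replicate. The members and lists were chosen with earlier results of these data known.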

Additional observations from a re-analysis of the deposited data

How the results depend on the processing

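The 7 members were higher in replicate 2 under every scaling, filter and quantification run (6 of 6 with Tgtp1 and Tgtp2 summed). The 22 alternative log2 ratios that the setting could move kept direction and call, and filters leave a member's ratio as it is. Total-count and DESeq2 scaling each raise every log2 ratio by a constant, so they could turn no member. The second quantification was the main alternative that could. With both replicates kept, 21 of 21 alternative mean levels stayed within 1 SD. That is a weak check, because the SD holds the whole difference between the 2 libraries. The mean of Tgtp1 went from 1.43 to 2.27 TPM in the second quantification and still stayed within its SD of 0.94. With 2 libraries, the level in either one alone always lies within 1 SD of the mean. The number over 2-fold was 4, or 3 in the second quantification and with the Tgtp pair summed. The effector median relative to the regulatory median, -0.63 on the log2 scale, turned to 0.072 with the pair summed, where the effector median falls on the pair itself. That relative level ranged from -1.05 to -0.20 when either replicate was left out. The median member level then ranged from 31.9 to 58.8 TPM. Over all genes, those lower in replicate 2 numbered 4071, or 2559 with total counts, and those over 2-fold higher numbered 893, or 1722 in the second quantification; the cause of the latter was not tested. Total counts moved the median log2 ratio of all genes to 0.13 and the share of calls that were higher from 50.3% to 68.6%. No paired analysis was possible because the study has 1 group. No fit without a replicate could test the ratios, which need both libraries. Depth limits Tgtp1, on 48.9 counts in replicate 1, and the short Tgtp transcripts.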

Other observations

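Gm12250 is annotated as a processed pseudogene, yet its single transcript holds an open reading frame of 417 codons with the lysine P-loop of the effector class at codon 81. It had 652 and 1656 counts, more than Iigp1 in replicate 1 (425) and fewer in replicate 2 (2192). Its RefSeq promoter held 2 ISRE matches and 1 GAS match, but that start site lies upstream of the annotated gene and outside its transcript. Of the 10 other IRG genes listed, all 10 had the lysine form as the first P-loop match in the reading frame of a transcript. The methionine form came first in 0. These are matches of letters only, and that of Irgq lay early, at codon 20.

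Transcripts of 4 of these genes, Gm5431, 9930111J21Rik1, 9930111J21Rik2 and Gm12185, held 2 P-loop matches in 1 reading frame of 835 or 844 codons. Whether the second match had lysine or methionine was not examined. The frames of the 9930111J21Rik pair (844 codons each) differ at 11 bases, and the values of these near-identical copies are uncertain for that reason. Gm12185 had 37.7 and 126 counts, at 0.30 and 1.72 TPM.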
